A study of Rattus norvegicus with 6 samples.

Results

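The 9 genes described here are the 3 members of the Gadd45 family (Gadd45a, Gadd45b and Gadd45g) and 6 genes tied to p53 or to arrest of the cell cycle (Cdkn1a, Cdkn1b, Cdkn2b, Mdm2, Ccng1 and Tp53inp1), out of 32623 genes measured. They were picked by symbol, and all 9 were found and passed the filter on low counts. Gadd45g had drawn attention through its own difference between the pressures in these libraries, so the values that compare the pressures are given as a description. RNA sequencing was performed on primary liver sinusoidal endothelial cells, which line the liver's capillaries and are perforated by fenestrae, isolated from Han Wistar rats. Cells of 3 libraries were held at 12 mmHg, labelled pathological, and cells of 3 libraries at 1 mmHg, labelled physiological. At both pressures the cells shared a perfused device with hepatocytes, stellate cells and hepatic macrophages and received a shear stress of 1.15 dyn/cm2 for 48 h. The labels used here do not state the rats' age, any pooling, or whether each library had an animal or culture of its own.

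The GADD45 proteins are small acidic proteins without enzymatic activity that are induced by stress. They bind MAP3K4, which activates the p38 and JNK kinases, and they also bind PCNA, CDK1 with cyclin B1, and the CDK inhibitor p21. The 3 genes answer to different inputs: Gadd45a is a classical target of p53, Gadd45b of NF-kB and TGF-beta, and Gadd45g of cytokines and growth factors. p53 itself halts the cell cycle mainly through p21, the product of Cdkn1a, and limits its own level by inducing the ubiquitin ligase gene Mdm2. The question asked of the data was whether Gadd45g varied together with the p53 targets or apart from them.

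Library totals ran from 11426299 to 23754767 counts at 12 mmHg and from 8925149 to 24025406 counts at 1 mmHg. Libraries differed widely in hepatocyte transcripts. The 17 matched hepatocyte markers summed to 366, 764 and 68780 CPM (counts scaled to a common library size) in pathological replicates 1, 2 and 3, against 229, 46890 and 40530 CPM in physiological replicates 1, 2 and 3. Pathological replicates 1 and 2 and physiological replicate 1 are called hepatocyte-poor below, and the other 3 libraries hepatocyte-rich. The rich libraries also had fewer genes with at least 1 count (10234 to 12833) than the poor ones (13729 to 17189), and lower totals (at most 17117840, against at least 23649036). All 14 matched endothelial markers had counts in every library and summed to 1374, 1007 and 6511 CPM in the pathological and 2473, 5919 and 5065 CPM in the physiological libraries. All 14 had negative log2 fold changes (median -0.63, none called), as did 6049 of the 12742 genes tested. Of the 14, 9 were lower in all 3 poor than in all 3 rich libraries (18.3% of all genes). The endothelial cadherin gene Cdh5 ran from 183 to 219.5 CPM at 12 mmHg and from 214 to 319 CPM at 1 mmHg, but the sinusoidal lectin gene Clec4g ran from 0.534 to 5.05 CPM in the poor and from 79.5 to 181 CPM in the rich libraries. Macrophage markers summed to 46.5 CPM in pathological replicate 2 and to between 650.4 and 1543 CPM elsewhere. The 11 stellate markers, of which Lum was at 0 throughout, summed to 434 to 1382 CPM at 12 mmHg and 539 to 1154 CPM at 1 mmHg. Reln made up most of that sum in the poor libraries (424, 433 and 515.5 CPM). Pdgfrb (0 to 0.896 CPM at 12 mmHg, 4.36 to 60.9 CPM at 1 mmHg) and Acta2 (0 to 1.18 CPM at 12 mmHg, 2.92 to 23.4 CPM at 1 mmHg) were lower at 12 mmHg without overlap. They were the only 2 of the 8 stellate markers tested that were so (3.05% of all genes). Of the 8, 2 had positive log2 fold changes and none was called. Des and Lrat were higher in pathological replicate 3 than in physiological replicates 2 and 3. Cholangiocyte and lymphocyte markers summed to at most 91.5 CPM in any library. In such bulk samples, fewer cells of a type and less RNA per cell cannot be told apart.

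Gadd45g (ENSRNOG00000013090) was higher in every library at 12 mmHg than in any library at 1 mmHg, and it was the one member of the 9 whose pressures did not overlap. Gadd45b stood nearest to it, with its high value in the same library but with overlapping groups. Gadd45a, Cdkn1a and Mdm2 ordered the hepatocyte-poor libraries as Gadd45g did, but were lowest of all in pathological replicate 3, where Gadd45g was raised. Of all genes tested, 1.56% lay higher at 12 mmHg without overlap.

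Gadd45g measured 171, 904 and 239 CPM in pathological replicates 1, 2 and 3, against 62.6, 149.7 and 122 CPM in physiological replicates 1, 2 and 3. The highest library was pathological replicate 2, and the lowest was physiological replicate 1. The means were 438 ± 405 CPM at 12 mmHg and 111 ± 44.5 CPM at 1 mmHg (SD, n = 3 each). The NF-kB-responsive Gadd45b (ENSRNOG00000019822) measured 144, 551.5 and 124 CPM in pathological replicates 1, 2 and 3, against 91.3, 139 and 120.5 CPM in the physiological ones. Apart from pathological replicate 2, its libraries lay between 91.3 and 144 CPM at either pressure. Gadd45a (ENSRNOG00000005615), the p53 target of the family, measured 594, 1053 and 25.2 CPM in the pathological and 427, 125.5 and 101 CPM in the physiological libraries. Its 3 highest values were those of the 3 hepatocyte-poor libraries, and the pressures overlapped.

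**Figure D1:**
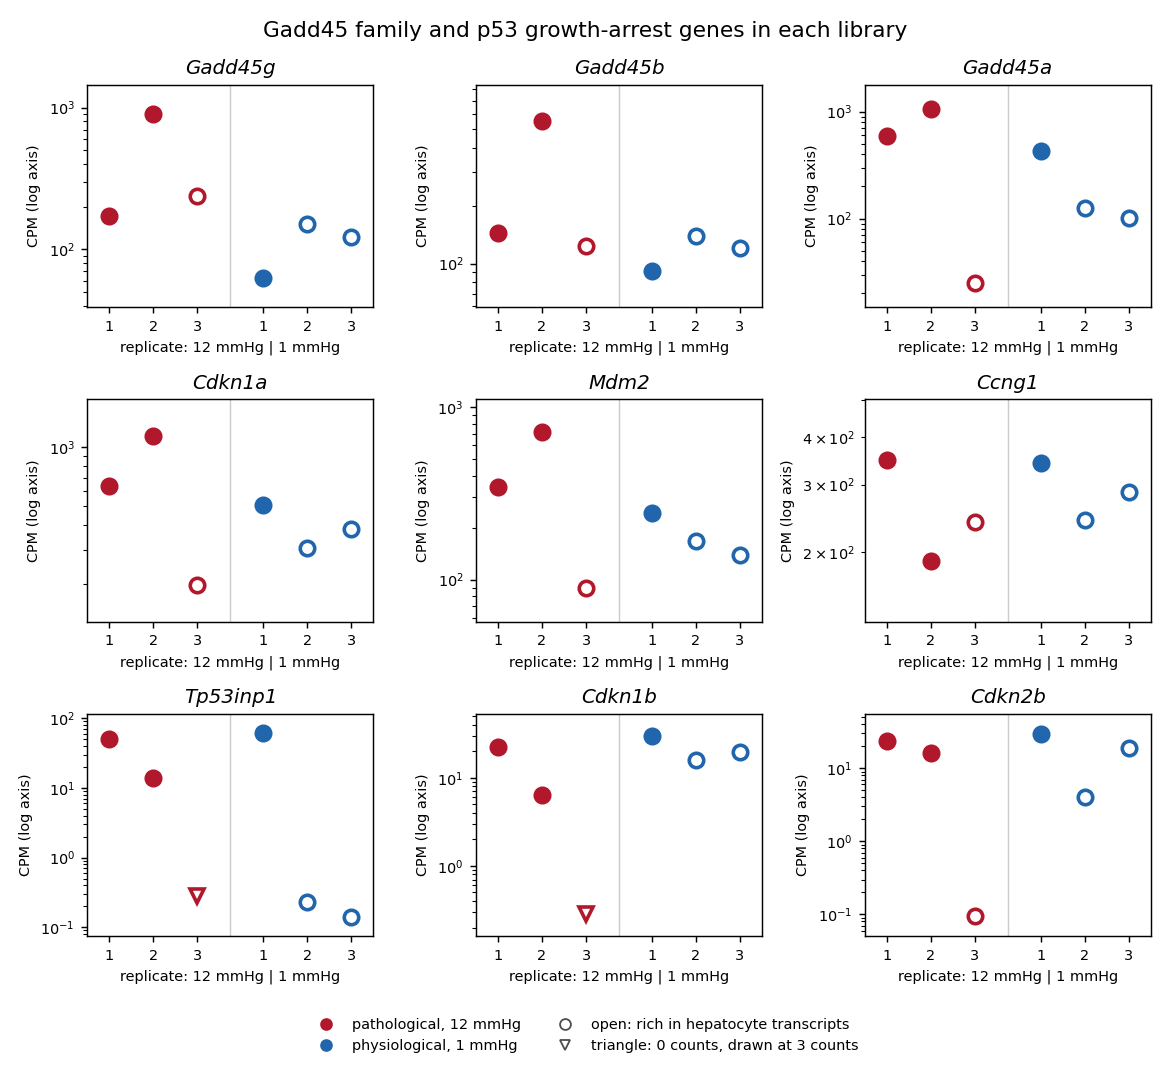
CPM of the 9 genes on log axes, 1 point per library, with the 12 mmHg libraries to the left of the 1 mmHg libraries in each panel and hepatocyte-rich libraries as open symbols. The 3 pathological points of Gadd45g lie above its 3 physiological points, whereas in Gadd45a, Cdkn1a and Mdm2 the open pathological point (replicate 3) is the lowest of the 6.

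The sequences around the start sites of 4 members are shown so that Gadd45g and its nearest member Gadd45b can be read beside 2 classical p53 targets, Gadd45a and Cdkn1a. They are RefSeq windows of assembly GRCr8, from 250 bases before to 50 bases after the annotated start, written 5' to 3' on the strand of the gene. They lie at chr17:13530302-13530601 (minus strand) for Gadd45g, chr7:9430669-9430968 (minus) for Gadd45b, chr4:97486750-97487049 (minus) for Gadd45a and chr20:7150682-7150981 (plus) for Cdkn1a. Capitals mark every match on either strand to the TATA box TATAAA, the CAAT box CCAAT, the E-box CACGTG, the AP-1 motif TGANTCA, the cyclic AMP element TGACGTCA, the GC box GGGCGG or the p53 half-site, and no matches overlap in these windows.
Gadd45g: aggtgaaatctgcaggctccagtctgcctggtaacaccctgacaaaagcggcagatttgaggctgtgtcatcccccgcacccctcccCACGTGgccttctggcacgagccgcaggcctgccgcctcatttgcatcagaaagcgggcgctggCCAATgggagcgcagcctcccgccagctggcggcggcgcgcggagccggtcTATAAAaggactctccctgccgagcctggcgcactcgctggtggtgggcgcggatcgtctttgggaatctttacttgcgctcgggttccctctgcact
Gadd45b: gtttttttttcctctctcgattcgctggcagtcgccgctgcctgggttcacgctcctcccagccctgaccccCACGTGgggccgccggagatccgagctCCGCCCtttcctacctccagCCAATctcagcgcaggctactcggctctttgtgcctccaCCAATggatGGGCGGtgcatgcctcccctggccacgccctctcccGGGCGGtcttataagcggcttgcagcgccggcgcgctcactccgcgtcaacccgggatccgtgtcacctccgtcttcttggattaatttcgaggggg
Gadd45a: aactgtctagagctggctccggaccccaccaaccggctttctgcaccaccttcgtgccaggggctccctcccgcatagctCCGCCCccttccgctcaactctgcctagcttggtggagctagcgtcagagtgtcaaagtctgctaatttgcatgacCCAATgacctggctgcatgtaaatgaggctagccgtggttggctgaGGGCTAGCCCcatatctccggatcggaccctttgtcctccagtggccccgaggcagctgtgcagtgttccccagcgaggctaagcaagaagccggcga
Cdkn1a: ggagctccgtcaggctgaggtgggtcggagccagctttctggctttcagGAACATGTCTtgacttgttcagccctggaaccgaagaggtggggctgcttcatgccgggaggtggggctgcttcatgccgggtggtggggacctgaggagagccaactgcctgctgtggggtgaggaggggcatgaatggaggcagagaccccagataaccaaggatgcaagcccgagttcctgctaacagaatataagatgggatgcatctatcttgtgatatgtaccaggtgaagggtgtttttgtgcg
The E-box CACGTG occurred in the windows of Gadd45g and Gadd45b and in none of the other 6 members with a window, against 6.74% of 24206 rat windows of this length. The p53 half-site occurred in Gadd45a, Cdkn1a and Ccng1, as in 4 of 25 windows of other p53 targets and 7.78% of all windows. TATAAA was found in Gadd45g alone among the 8 members (14.3% of all windows), and CCAAT in 6 of the 8 (37.8%). GGGCGG was found in 6 of the 8, missing from Gadd45g and Cdkn1a (35.9%). TGACGTCA was found in Cdkn2b alone (1.91%), and TGANTCA in no member (7.33%). A match is a run of letters and not a shown binding site. Each window covers a single annotated start, which need not be the start used in these cells. Elements in introns, farther upstream or around another start of the same gene fall outside these windows.

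Among the p53 targets proper, Cdkn1a and Mdm2 moved almost in step, with profiles over the 6 libraries only 0.25 log2 units apart. Cdkn1a (ENSRNOG00000000521), which encodes the CDK inhibitor p21, measured 635, 1151 and 197 CPM in the pathological libraries, against 509, 306 and 383 CPM in the physiological ones. Mdm2 (ENSRNOG00000006304), whose product marks p53 for degradation, measured 345, 712 and 88.9 CPM in the pathological and 243, 168 and 138 CPM in the physiological libraries. In both genes the highest and the lowest library were pathological replicates 2 and 3, so the pathological values enclosed the physiological ones. Ccng1 (ENSRNOG00000003256), the p53-induced cyclin G1, varied least and measured 348, 189.5 and 239 CPM at 12 mmHg, against 342, 243 and 287 CPM at 1 mmHg. In pathological replicate 2, where Cdkn1a and Mdm2 peaked, Ccng1 was at its lowest. Tp53inp1 (ENSRNOG00000007964), a p53-induced stress protein gene, measured 50.2, 13.8 and 0 CPM in the pathological and 60.6, 0.230 and 0.142 CPM in the physiological libraries. It had 1410, 293 and 0 counts in the pathological and 1850, 4 and 1 counts in the physiological libraries, which sets the hepatocyte-poor libraries apart from the rich ones whatever the pressure. A count of 0 allows up to 0.283 CPM in pathological replicate 3, and such limits and floors cover counting error only.

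The CDK inhibitor members outside the p53 response had lower means at 12 mmHg, within overlapping groups. Cdkn1b (ENSRNOG00000007249), which encodes p27 and is held mainly by FoxO factors and protein turnover, measured 22.1, 6.32 and 0 CPM in the pathological libraries, against 30.0, 16.0 and 19.4 CPM in the physiological ones. Pathological replicate 3 had 0 counts where the physiological libraries had 137 to 916, and pathological replicate 1 lay inside the physiological range. Cdkn2b (ENSRNOG00000006735), the TGF-beta-induced p15 gene, measured 23.8, 16.1 and 0.0944 CPM in the pathological and 29.7, 4.03 and 19.0 CPM in the physiological libraries, and the groups overlapped. Its value in pathological replicate 3 rests on 1 count. Of 4 further CDK inhibitor genes matched, all 4 were tested, none was called and 3 had positive log2 fold changes, with a median of 1.09 beside 0.05 over all genes. That median was 4.08 without physiological replicate 1 and 0.45 without pathological replicate 2. It lay between the values of Cdkn2c (0.68) and Cdkn3 (1.50). Of the 3 positive genes, Cdkn2a and Cdkn3 had 0 counts in every hepatocyte-rich library, and Cdkn2c had 0 in physiological replicate 3. Cdkn1c, the p57 gene, was the 1 of these 4 with a mean log2 CPM of at least 1, at 2.67, 4.90 and 36.3 CPM in the pathological and 2.13, 11.8 and 33.6 CPM in the physiological libraries. The log2 fold change of Cdkn1c was -0.12. The INK4 genes Cdkn2a and Cdkn2c stayed under 8 CPM in every library.

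In the fit over all genes, none of the 9 genes passed. edgeR's quasi-likelihood test called 0 of 12742 genes (0%) below 0.05 after Benjamini-Hochberg adjustment, and each member had an adjusted p of 0.9999. Any list here with none called by this test therefore does not differ in that from all genes. At an unadjusted p under 0.05 it held 33 genes (0.259%), of which Gadd45g was the 1 member. Without pathological replicate 3 it held 754 genes, with Gadd45a, Gadd45b, Gadd45g and Mdm2 among them, and it held no member without pathological replicate 2 or without any 1 of the physiological libraries. DESeq2 called 44 of 15021 genes (0.293%) and no member, while limma-voom called none (0%) and had 159 genes below 0.05 before adjustment (1.25%), of which Gadd45g was the 1 member. With sample weights limma-voom called none and had 2528 genes below 0.05 before adjustment, with Gadd45a, Cdkn1a, Mdm2 and Tp53inp1 among them but not Gadd45g. The log2 fold change of Gadd45g was 1.97 (95% interval 0.10 to 3.85), and those of Gadd45b, Gadd45a and Mdm2 were 1.23 (-0.49 to 2.94), 1.36 (-1.34 to 4.05) and 1.06 (-0.77 to 2.89). Cdkn1a had 0.73 (-0.96 to 2.41) and Ccng1 -0.17 (-1.44 to 1.11). The intervals of Tp53inp1 (0.07, -5.62 to 5.75), Cdkn1b (-1.20, -5.51 to 3.11) and Cdkn2b (-0.40, -4.40 to 3.61) spanned more than 7 log2 units each. Over the 9 genes, 6 fold changes were positive, against 52.5% of all genes. Without pathological replicate 2 the log2 fold change of Gadd45g was 0.88, that of Gadd45b 0.20, of Gadd45a 0.51, of Mdm2 0.24 and of Cdkn1a 0.06, and for Ccng1 it turned to 0.01. Without physiological replicate 1 it was 2.38 for Gadd45a, and 6.86 for Tp53inp1, which has few counts in the other physiological libraries.

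**Figure D2:**
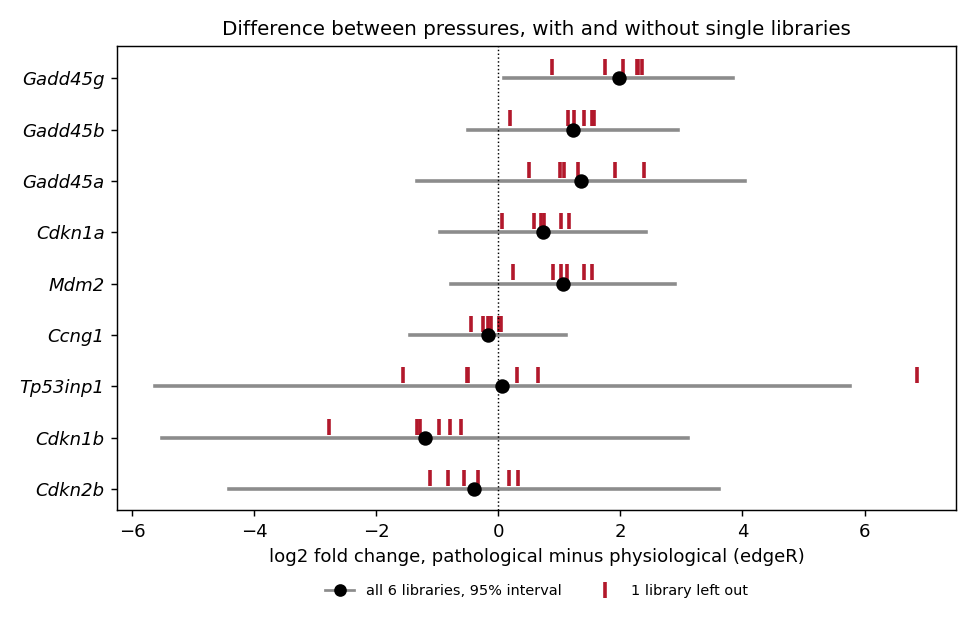
Log2 fold changes of the 9 genes, pathological minus physiological, as black points with 95% intervals from edgeR, with red ticks for the fits that leave out 1 library each. The 6 ticks of Gadd45g run from 0.88 to 2.36, and those of Ccng1, Cdkn2b and Tp53inp1 lie on both sides of 0.

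Each pressure had libraries of both hepatocyte classes, so each member could be set against libraries of its own class. The classes were not balanced, with pathological replicates 1 and 2 but only physiological replicate 1 among the poor libraries. With a term for hepatocyte transcripts the log2 fold change of Gadd45g was 2.08, against 1.97 without, and that of Gadd45b 1.10, against 1.23. Those of Gadd45a, Cdkn1a and Mdm2 were 0.04, 0.25 and 0.47, against 1.36, 0.73 and 1.06. Among the hepatocyte-poor libraries, Gadd45g in pathological replicates 1 and 2 was 2.73 and 14.5 times its level in physiological replicate 1. The same ratios were 1.58 and 6.04 for Gadd45b, 1.39 and 2.47 for Gadd45a, 1.25 and 2.26 for Cdkn1a, and 1.42 and 2.93 for Mdm2. Pathological replicate 2 was the highest library for these 5 of the 9 members (21.1% of all genes), physiological replicate 1 for Tp53inp1, Cdkn1b and Cdkn2b (18.3%) and pathological replicate 1 for Ccng1 (8.04%). None was highest in pathological replicate 3 (21.2%), physiological replicate 2 (13.5%) or physiological replicate 3 (17.9%). The 5 genes all held the order pathological replicate 2, pathological replicate 1, physiological replicate 1, as did 26.3% of all genes tested. Among the hepatocyte-rich libraries, Gadd45g in pathological replicate 3 was 1.60 and 1.96 times its level in physiological replicates 2 and 3. Gadd45b stood at 0.892 and 1.03 times those levels, Gadd45a at 0.201 and 0.249, Cdkn1a at 0.645 and 0.514, and Mdm2 at 0.530 and 0.642. Of the 9 members, 7 lay lower in pathological replicate 3 than in both rich physiological libraries, against 33.8% of all genes, and Gadd45g alone lay higher, against 28.5%. These library orders were looked for after the values had been seen, and with 1 library on one side of each class they carry no test. Of the 9 members, Gadd45a, Cdkn1a, Mdm2 and Tp53inp1 were higher in all 3 poor libraries than in all 3 rich ones, against 30.2% of all genes, and no member was lower in all 3, against 18.3%. Hepatocyte content, total counts and the number of genes with a count divide the libraries in the same way, and their part in these values was not tested.

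No other p53 target was called, as in the same fit 0 of 12742 genes were (0%). Of 31 matched genes, 27 were tested, and 19 had positive and 8 negative log2 fold changes, with a median of 0.37 beside 0.05 over all genes. None of the 27 lay higher at 12 mmHg without overlap (1.56% of all genes). Phlda3, an inhibitor of the kinase AKT, lay lower without overlap (3.05% of all genes), at 25.9, 4.20 and 4.53 CPM in the pathological and 26.1, 27.8 and 53.7 CPM in the physiological libraries. Summed over the list, the targets gave 2551, 5107 and 1329 CPM in the pathological and 1963, 1505 and 1360 CPM in the physiological libraries. The sum was highest in pathological replicate 2 and lowest in pathological replicate 3, as for Cdkn1a and Mdm2. The polo-like kinase gene Plk3 had the highest fold change among targets with a mean log2 CPM of at least 1, with 199, 738 and 29.8 CPM in the pathological and 135, 54.4 and 80.5 CPM in the physiological libraries. Sesn2, an inhibitor of mTORC1 signalling that ATF4 also induces, measured 408, 573 and 37.8 CPM in the pathological and 289, 129 and 122 CPM in the physiological libraries. Both repeated the order of Cdkn1a within the poor libraries, and both were lower in pathological replicate 3 than in the other rich libraries.

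Other targets departed from that order. The apoptosis effector gene Bax measured 131, 170 and 97.6 CPM in the pathological and 104, 120 and 80.8 CPM in the physiological libraries. Plk2, a kinase gene that responds to p53 and to growth factors, measured 602, 1817 and 445 CPM in the pathological and 509, 385 and 219 CPM in the physiological libraries. The antiproliferative early response gene Btg2 measured 112, 357 and 301 CPM in the pathological and 80.5, 74.4 and 197 CPM in the physiological libraries. Plk2 and Btg2 were the 2 targets among 27 that combined the order of Gadd45g in the poor libraries with a higher value in pathological replicate 3 than in the other rich libraries (6.31% of all genes). The RNA-binding protein gene Zmat3, a specific p53 target, measured 13.1, 10.7 and 0 CPM in the pathological and 9.96, 0.0576 and 0 CPM in the physiological libraries. Like Tp53inp1 it separated poor from rich libraries, as did 12 of the 27 targets (30.2% of all genes). The repair gene Ddb2 had too few counts to be tested, at 3.83 CPM or less in every library.

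**Figure D3:**
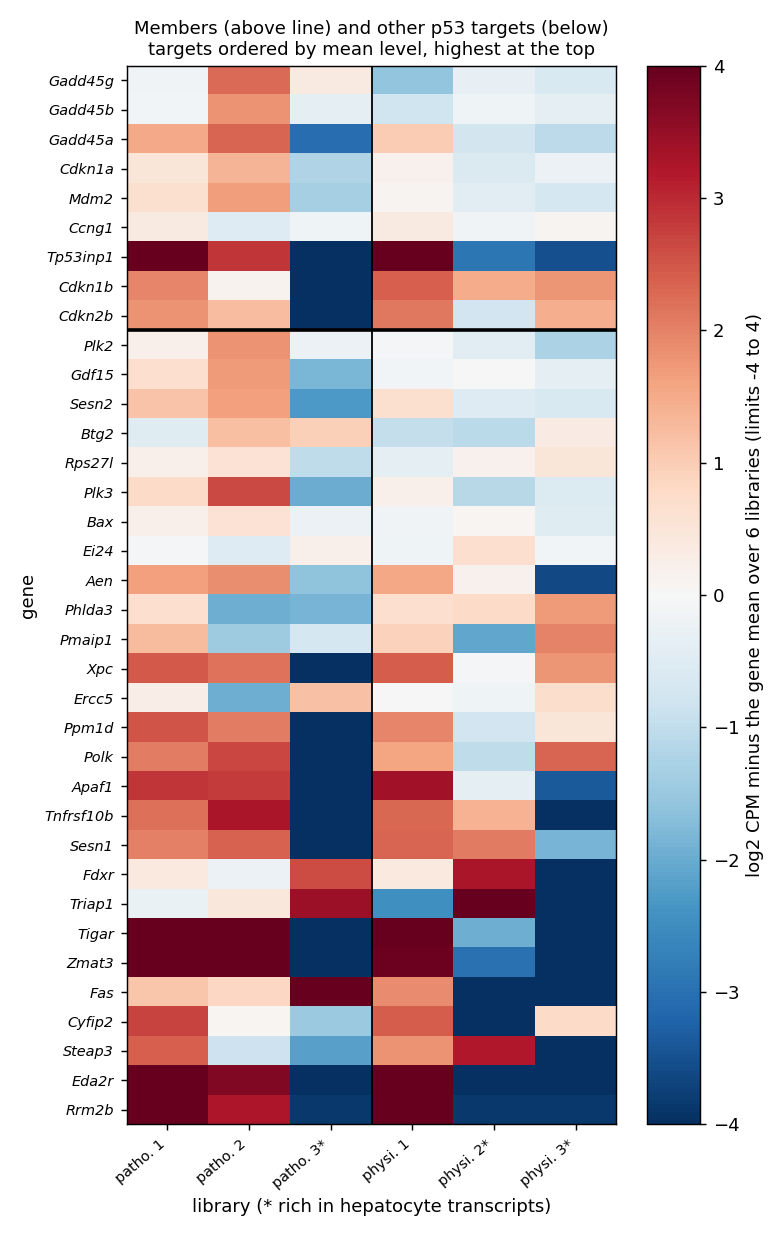
Log2 CPM of the 9 members and the 27 tested p53 targets in each library, with the mean of each gene over the 6 libraries taken off, so that red is above and blue below that mean, and 12 mmHg libraries on the left. Gadd45g is above its mean in pathological replicate 3, where Gadd45a, Cdkn1a, Mdm2 and Tp53inp1 are below theirs.

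No gene in the list of p53 regulators was called, as in the same fit 0 of 12742 genes were (0%). Mdm4, the partner of Mdm2 in restraining p53, measured 48.9, 67.9 and 0.0944 CPM in the pathological and 43.1, 16.6 and 33.5 CPM in the physiological libraries. Of 13 matched regulators, 11 were tested and 6 were positive, with a median of 0.16 that was negative in 10 of 17 alternatives and ran from -0.57 to 0.73 with 1 library left out. Among regulators with a mean log2 CPM of at least 1, the deubiquitinase gene Usp7 had the highest fold change (0.67, -1.25 to 2.59) and the checkpoint kinase gene Chek2 the lowest (-3.62, -8.41 to 1.16).

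The likeness of each gene to Gadd45g was measured as the root mean square difference between log2 CPM profiles over the 6 libraries, each centred on its own mean. Gadd45b was the nearest member, at 0.48 log2 units, and 2 of the other 12741 tested genes were nearer. Mdm2 and Cdkn1a followed at 1.06 and 1.07, Ccng1 at 1.44 and Gadd45a at 1.89. Cdkn2b, Cdkn1b and Tp53inp1 stood at 3.19, 4.07 and 4.56, and all 3 have a library with at most 1 count. Without pathological replicate 3 the distance was 1.74 for Cdkn2b, 2.02 for Cdkn1b and 1.22 for Gadd45a, and without pathological replicate 2 it was 0.80 for Ccng1. The median was 3.16 over the 27 p53 targets and 2.70 over all tested genes. That order turned without pathological replicate 3 (2.10 over the targets, 2.24 over all genes) and without physiological replicate 2 (2.59 over the targets, 2.72 over all genes). Low counts enlarge this distance: among genes with a mean log2 CPM of at least 5, a limit chosen after seeing the data, the median was 1.16 over 9 targets and 1.35 over 3734 genes. No p53 target was as near to Gadd45g as Gadd45b was, and 8 of the 27 were nearer than Gadd45a. By nearness Gadd45b ranked 3 and Gadd45a 4554 among the other 12741 tested genes. Hardly any gene could thus be nearer than Gadd45b, and many genes outside the list were nearer than Gadd45a. Cdkn1a and Mdm2 were nearer to Gadd45b (0.63 and 0.65) than to Gadd45g.

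**Figure D4:**
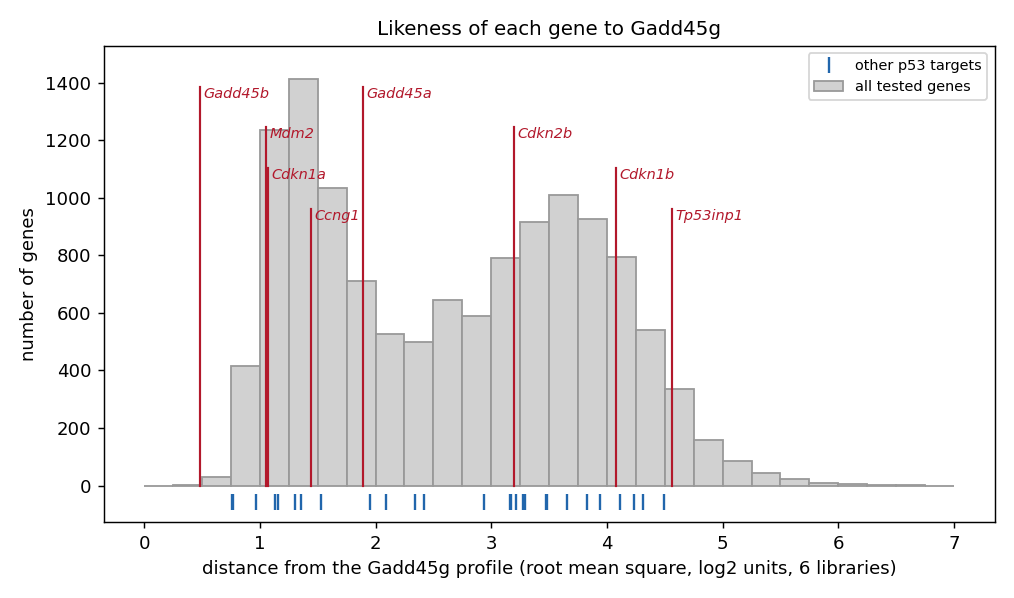
Number of tested genes (vertical axis) by distance from the Gadd45g profile in log2 units over 6 libraries (horizontal axis), with the other 8 members as red lines and the other p53 targets as blue ticks. Gadd45b at 0.48 lies left of nearly all genes, and Tp53inp1 at 4.56 lies in the right tail.

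The 5 genes most like Gadd45g, among those with a mean log2 CPM of at least 1, were Rgs2, Hbegf, Gadd45b, Slc25a25 and Tubb2a, at 0.46 to 0.54 log2 units. Rgs2, a regulator of G protein signalling, measured 38.3, 151 and 58.4 CPM in the pathological and 20.4, 46.1 and 16.0 CPM in the physiological libraries. Hbegf, a ligand of the EGF receptor, measured 72.8, 338 and 63.7 CPM in the pathological and 38.2, 54.7 and 27.1 CPM in the physiological libraries. Slc25a25, a mitochondrial ATP carrier gene, measured 113, 286.5 and 119 CPM in the pathological and 66.1, 95.8 and 83.0 CPM in the physiological libraries. In all 3, as in Gadd45g, pathological replicate 2 was far above the rest. The genes were picked for nearness to Gadd45g, whose profile peaked in that library, so this likeness followed largely from the choice. Of the 5 only Hbegf and Slc25a25 had groups that did not overlap (1.56% of all genes, higher in the pathological libraries). That separation was likewise favoured by the choice. Gadd45b was still the nearest member with any 1 library left out, but the nearest gene was no longer Rgs2 in 5 of those 6 cases.

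Genes around the GADD45 proteins had fold changes of both signs. Of 15 binding partners and kinases of the p38 and JNK cascades, 9 were positive and 6 negative, none was called, and the median was 0.29. It was -0.04 without pathological replicate 3, 0.10 without pathological replicate 2 and 0.66 without pathological replicate 1. Map2k3, which encodes a kinase that activates p38, was the 1 gene of the 15 that lay higher at 12 mmHg without overlap (1.56% of all genes). It measured 85.4, 530 and 58.0 CPM, against 54.1, 0.115 and 0.142 CPM at 1 mmHg, the last 2 on 2 counts and 1 count. Map3k4, the kinase that GADD45 proteins bind, measured 5.16, 1.42 and 49.2 CPM in the pathological and 11.7, 13.7 and 22.6 CPM in the physiological libraries. Mapk14, which encodes p38-alpha, measured 23.5, 4.72 and 109 CPM in the pathological and 50.2, 116 and 81.6 CPM in the physiological libraries, and was higher in all 3 hepatocyte-rich libraries than in the poor ones. Pcna, the replication clamp gene and also a p53 target, measured 236, 523 and 118 CPM in the pathological and 189, 125 and 244 CPM in the physiological libraries. Cdk1 lay lower at 12 mmHg without overlap (3.05% of all genes), at 0.498, 0 and 0.849 CPM against 2.88, 1.10 and 20.2 CPM at 1 mmHg. These values of Cdk1 rest on few counts, 14, 0 and 9 against 88, 19 and 142. Its partner Ccnb1, the cyclin B1 gene, measured 6.27, 8.35 and 9.72 CPM in the pathological and 6.09, 0 and 22.3 CPM in the physiological libraries, with overlapping groups.

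Stress and early response genes were examined for the same library orders. In the list of the ATF4 and CHOP response, 10 of 15 genes were positive, none was called, and the median was 0.38, against 0.17 without pathological replicate 2. Ppp1r15a (GADD34), which reverses the translation block of stressed cells, measured 1343, 1710 and 303 CPM in the pathological and 949, 525 and 478 CPM in the physiological libraries. Ddit3 (CHOP, first named GADD153) was highest at 1 mmHg, with 577, 1500.0 and 481 CPM in the pathological and 377, 968 and 1958 CPM in the physiological libraries. These GADD genes differed from Gadd45g in the rich libraries, where both were higher at 1 mmHg than in pathological replicate 3. Atf4, the transcription factor gene at the head of this response, measured 1294, 2421 and 1117 CPM in the pathological and 1028, 1123 and 1408 CPM in the physiological libraries. Its target Atf3 measured 261, 462 and 534 CPM in the pathological and 194, 282 and 487 CPM in the physiological libraries, and pathological replicate 3 was its highest library. Ddit4 (REDD1), an mTORC1 inhibitor gene, had the highest fold change of the list and measured 100.5, 253 and 29.2 CPM in the pathological and 74.6, 50.5 and 18.3 CPM in the physiological libraries. Chac1, a glutathione-degrading enzyme gene, had the lowest and measured 35.4, 11.5 and 10.4 CPM in the pathological and 35.0, 22.9 and 54.8 CPM in the physiological libraries.

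Of 20 tested immediate early genes, a set whose tendency upward was already known from these libraries, 16 were positive, none was called, and the median was 0.56. Fos measured 61.7, 293 and 210 CPM in the pathological and 25.2, 67.1 and 137 CPM in the physiological libraries. At 0.67 log2 units it was the nearest to Gadd45g of the 15 early genes with a mean log2 CPM of at least 5. The median distance of those 15 was 1.14, beside 1.16 over the 9 p53 targets and 1.35 over all genes at that level. Egr1 measured 60.0, 369 and 331 CPM in the pathological and 34.9, 128 and 268 CPM in the physiological libraries. Jun, the AP-1 partner of Fos, measured 328, 441 and 277 CPM in the pathological and 290.4, 186 and 319 CPM in the physiological libraries, with overlapping groups. The ERK phosphatase gene Dusp5 had the highest fold change of the set and measured 205, 398 and 35.3 CPM in the pathological and 161, 61.4 and 14.8 CPM in the physiological libraries. Egr2, a relative of Egr1, had the lowest and measured 1.50, 0.141 and 17.6 CPM in the pathological and 0.721, 17.6 and 41.0 CPM in the physiological libraries. The library order of Gadd45g, including a pathological replicate 3 above the other rich libraries, was held by Fos, Junb, Egr1, Ier3, Zfp36 and Btg2, 6 of the 20 (6.31% of all genes). The order of Cdkn1a was held by 2 of the 20 (11.3% of all genes).

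Lists upstream of Cdkn2b and Cdkn1b and lists of dividing cells were mixed. Of 16 genes of the TGF-beta and FoxO axis, 8 were positive and 8 negative, with a median of 0.11 and none called. With 1 library left out that median ran from -0.17 (pathological replicate 1) to 1.78 (physiological replicate 1), and it was negative in 4 of the 6 cases. Smad7, the feedback inhibitor induced by TGF-beta, had the highest fold change and measured 157, 229.9 and 44.4 CPM in the pathological and 103, 24.1 and 44.6 CPM in the physiological libraries. The ligand gene Tgfb1 measured 40.5, 24.0 and 73.2 CPM in the pathological and 46.9, 70.5 and 28.8 CPM in the physiological libraries, with overlapping groups. The ligand gene Tgfb2 had the lowest (-2.98, 95% interval -7.98 to 2.03). Of 20 matched genes of S phase and mitosis, 15 had enough counts to be tested, 9 were positive, none was called, and the median was 0.65. It was -0.06 without pathological replicate 2 and 0.21 without pathological replicate 1. The proliferation marker Mki67 measured 1.10, 3.35 and 15.0 CPM in the pathological and 14.8, 3.40 and 6.24 CPM in the physiological libraries. Among genes of the list with a mean log2 CPM of at least 1, the mitotic kinase gene Aurka had the highest fold change. It measured 19.9, 22.9 and 24.2 CPM in the pathological and 18.1, 14.6 and 0.142 CPM in the physiological libraries. Its groups did not overlap (1.56% of all genes), but its value in physiological replicate 3 rests on 1 count. E2f1, a transcription factor gene of S phase entry, had the lowest fold change among the same genes. It measured 5.06, 5.38 and 0.189 CPM in the pathological and 6.91, 2.88 and 22.1 CPM in the physiological libraries. Top2a had too few counts to be tested, with at most 13.3 CPM in any library.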

How the data were processed

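Single-end mRNA sequencing (HiSeq2500, NuGEN Universal Plus libraries) was done on 6 libraries, per the labels' protocols. Each library has its own deposited table of expected counts, per the file headers, which are estimated reads for each gene without normalization. The submitters' processing notes name STAR, RSEM and limma but no version. No source used here names the genome build, the annotation or the strand setting. Between 4.33% and 10.4% of values per library were not whole numbers. Genes with close paralogs, overlapping genes or antisense partners are uncertain.

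Expected counts were rounded and compared with the quasi-likelihood test of edgeR 4.0.16 (R 4.3.3), with TMM scaling, filterByExpr (minimum count 10) and without covariates. The filter kept 12742 of 32623 genes. Tests were two-sided and adjusted by Benjamini-Hochberg with a threshold of 0.05. CPM used TMM-scaled totals. Log2 CPM for the distances used a prior count of 0.5. Fits with DESeq2 1.42.0 and limma 3.58.1 were alternatives. Libraries were grouped by the labelled pressure and numbered in deposition order. No label states a pairing, and a p-value here reflects spread among these 6 samples that may be technical. No 2 libraries agreed within sampling noise (chi-square per degree of freedom 74.9 to 1100).

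Of 217 list symbols, 210 matched the files by symbol and 7 did not. Hepatocyte-rich means a summed hepatocyte marker level of 10000 CPM or more. The members and lists were chosen with earlier results of these data known. The genes named were the 9 members, fixed examples from each list (some are not reported here), the highest and lowest fold change of each list among genes averaging 1 or more on the log2 CPM scale, and the 5 genes nearest to Gadd45g. Other genes named, such as Cdh5, Clec4g, Junb, Ier3 and Zfp36, were chosen after their values were seen. The edgeR and distance calculations were tested on simulated data.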

Additional observations from a re-analysis of the deposited data

How the results depend on the processing

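The count of genes called was 0 with edgeR under the other scalings, filters, covariates and each left-out library, and with limma-voom. DESeq2 called 44 genes, and edgeR within the 3 hepatocyte-rich libraries, with 1 pathological library assumed to vary like the others, called 155. No member was called in any of these fits. The log2 fold change of Gadd45g was positive in all 17 alternatives, between 0.83 within the hepatocyte-rich and 3.13 within the hepatocyte-poor libraries, and between 0.88 and 2.36 with 1 library left out. With a block of neighbouring sample numbers it was 1.66, against 1.97 without. Whether these numbers pair the samples was not settled. The deviations of pathological and physiological replicate 2 correlated at -0.20 across genes, against 0.61 and 0.38 for replicates 1 and 3. Replicate 2 joins a hepatocyte-poor to a hepatocyte-rich library, while replicates 1 and 3 each share a class, so this check cannot decide. Pathological replicate 2 and physiological replicate 1, both hepatocyte-poor, correlated at 0.42. That block changed no call and no sign among the members, and it moved the count of genes at an unadjusted p under 0.05 to 31, against 33. That number was 12 without pathological replicate 2 and 754 without pathological replicate 3. Of 153 member fold changes recomputed, 136 kept their sign, and those of Gadd45g and Cdkn1b did throughout. Within the hepatocyte-rich libraries the sign turned for Gadd45a (-2.15), Gadd45b (-0.05), Cdkn1a (-0.79), Mdm2 (-0.77) and Tp53inp1 (-4.21), and the median of the p53 targets was -1.32, against -0.35 for all genes there. With a term for hepatocyte transcripts that median was -0.06, against -0.22 for all genes. With 1 library left out, its lowest value was 0.10 (pathological replicate 1 removed) and its highest 1.06 (physiological replicate 1 removed). The cause was not tested. Gadd45b was the nearest member to Gadd45g in all 8 alternatives for the distance, at 0.36 to 0.53. The sign of Tp53inp1 turned in 7 of the 17 alternatives, among them the hepatocyte-poor libraries alone (-0.88), the hepatocyte term (-0.67), scaling to library totals (-0.11) and the fit without pathological replicate 1 (-1.55). Those of Cdkn2b and Ccng1 turned in 3 each. Within the hepatocyte-rich libraries the medians of the p53 regulators (-1.37), the TGF-beta and FoxO axis (-2.52), the stress response (-0.37) and the proliferation list (-0.16) were negative too. The distances from Gadd45g of Tp53inp1, Cdkn1b and Cdkn2b, which have a library with 0 or 1 count, depend on the prior count. They were 4.56, 4.07 and 3.19 with a prior count of 0.5, and 3.60, 3.02 and 2.705 with 5. Fold changes were not recomputed with another prior count.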
